A study of Sus scrofa with 12 samples.

Results

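CRABP2 and NR2F1 are a pair of genes tied to retinoic acid, and their deposited log ratios are described here in porcine oocytes of 4 groups. The members are all features whose platform gene symbol is CRABP2 or NR2F1. Each gene had 1 feature, so there were 2 features among 45220, and 2 genes among 11913. Both genes were chosen by their measured group differences on these same arrays. CRABP2 ranked 2 by p between the oocyte classes averaged over GDNF, and NR2F1 ranked 31 between GDNF-treated and control LG oocytes. Their values are therefore given as a description, with no test, and support nothing.

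The study matured oocytes of Sus scrofa in vitro, collected from crossbred prepubertal gilts, in TCM199 medium with EGF, the gonadotropins FSH and LH, and follicular fluid of pigs. Oocytes were split into classes SM and LG, names that the labels do not spell out. The 4 groups were SM oocytes without added compound (SM control), SM oocytes treated with glial cell line-derived neurotrophic factor (SM GDNF), LG oocytes without added compound (LG control) and LG oocytes treated with GDNF (LG GDNF). GDNF is a secreted ligand that signals through GFRA co-receptors and the RET kinase. All groups shared the maturation medium, and the labels give the same maturation time for every array. Oocytes of all groups were stripped of their surrounding cumulus cells with hyaluronidase and a glass pipette. Each group had 3 arrays, each of a pool of oocytes, against a common reference pooled from all groups. The labels give 2 per pool for a sample, while the design text speaks of 3 replicates per array. The p-values of the fit measure the spread between these pools.

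Retinoic acid is made from vitamin A (retinol) by successive oxidation and acts in the nucleus through RAR and RXR receptors. CRABP2 is a small cytosolic lipid-binding protein that carries retinoic acid to the nucleus and passes it to the RARs, and its gene is itself induced by retinoic acid in many cells. NR2F1 (COUP-TFI) is an orphan nuclear receptor of the steroid and thyroid receptor superfamily. It binds to direct repeats of the hormone response element that RAR and RXR also use, can pair with RXR, represses many retinoic acid-responsive promoters, and is induced by retinoic acid in embryonal carcinoma cells. In the ovary, retinoids are made by granulosa cells and occur in follicular fluid, and retinoic acid is known as a signal for the entry of fetal germ cells into meiosis.

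Every value below is a deposited log ratio, taken as base 2, or a difference of such ratios. The sample carried Cy5 on slide 1 and Cy3 on slides 2 and 3, and each slide held 1 array of every group. Whether the deposited ratios of slide 1 run the same way as those of slides 2 and 3 is not given in the sources used here. A higher ratio is thus not known to mean more RNA in the sample, and "higher" and "lower" below refer to the deposited ratio alone. Pairs of arrays with the same dye orientation correlated across features at 0.150 to 0.844 (median 0.440, 34 pairs), and pairs with opposite orientation at -0.0664 to 0.603 (median 0.399, 32 pairs). Most differences of the pair between 2 groups are therefore given within slides, as deposited, on the 8 arrays of slides 2 and 3, and with slide 1 turned in sign. A difference with no turned value beside it, as for many list genes, holds for the ratios as deposited only. The size of a difference within a slide does not need the orientation, but its sign does. Every statement below that slides share a side, that groups do not overlap or that a group ranks high or low, shares of all genes included, thus holds for the ratios as deposited. With slide 1 turned, neither CRABP2 nor NR2F1 had groups without overlap in any of the comparisons in which they had them as deposited. Array medians lay between -0.0106 and 0.0215. The SD over features was 0.454 to 0.547 on 11 arrays and 0.871 on LG control pool 2, which also had 489 features above a ratio of 4 against at most 9 elsewhere. Ratios hold no level per gene, so the presence of CRABP2, NR2F1 or any marker of oocytes or other cells could not be read from them.

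CRABP2 had its lowest ratios in SM control. On slides 1, 2 and 3 the ratios there were -1.35, -1.11 and -1.03. In SM GDNF they were -0.97, -0.73 and -0.32, and in LG control -0.47, -0.24 and -0.29. In LG GDNF they were 0.35, -0.32 and 0.084, the only group with ratios above 0. The 3 SM control arrays lay below all other 9 arrays, a pattern, in either direction, of 0.646% of all genes. The pattern was gone with slide 1 turned, where that array stood at 1.35. SM GDNF overlapped with LG control and LG control with LG GDNF.

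**Figure D1:**
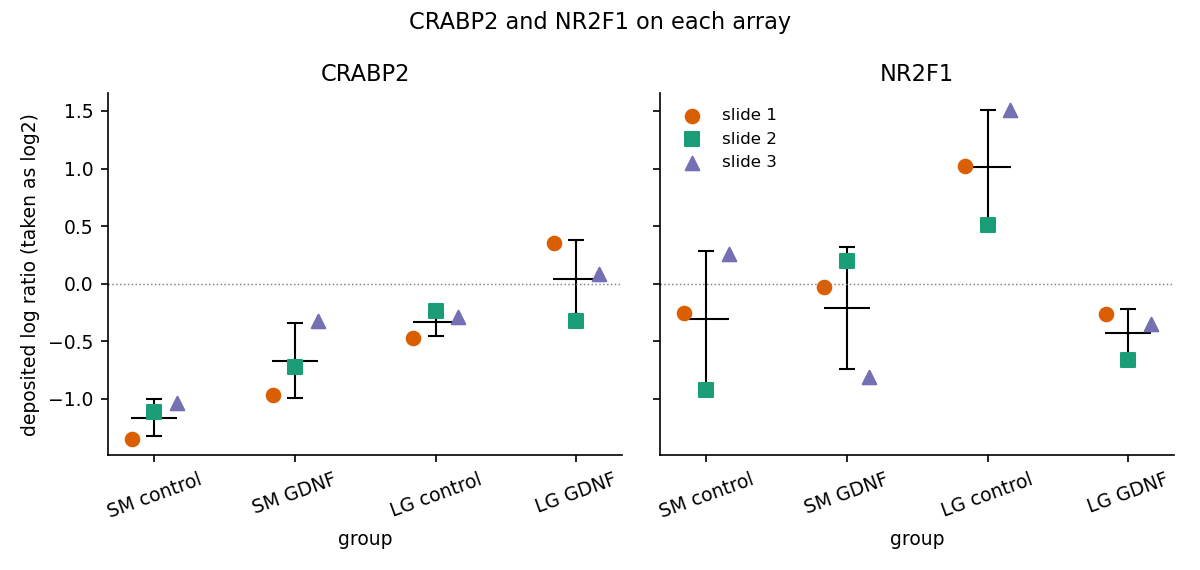
Deposited log ratio (vertical axis, taken as log2) of CRABP2 and NR2F1 on each of the 12 arrays by group; points are arrays with colour and shape giving the slide, horizontal bars are means and whiskers the SD (n = 3). CRABP2 lies at -1.35 to -1.03 in SM control and at -0.47 or above in LG, while NR2F1 lies at 0.51 to 1.51 in LG control and at 0.26 or below on all other arrays.

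The order of the group means of CRABP2 was SM control at -1.16 ± 0.163 (SD, n = 3), SM GDNF at -0.67 ± 0.326, LG control at -0.33 ± 0.120 and LG GDNF at 0.038 ± 0.340. The order with slide 1 turned was SM control at -0.27 ± 1.40, LG GDNF at -0.20 ± 0.244, SM GDNF at -0.027 ± 0.884 and LG control at -0.020 ± 0.424, and no neighbours differed beyond their spread. Of the neighbours as deposited, SM control and SM GDNF did not overlap, and the other neighbours did. The ratio placed CRABP2 in the lowest 0.544%, 2.53% and 1.78% of the 45220 features in SM control on slides 1, 2 and 3. Turned, the array of slide 1 was at the percentile 99.5. As deposited, in the 6 LG arrays it stood between the percentiles 14.3 and 81.4. CRABP2 was below 0 on 10 of 12 arrays, 3 of 4 on slide 1, 4 of 4 on slide 2 and 3 of 4 on slide 3.

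Between LG and SM without GDNF, CRABP2 differed within slides by 0.88, 0.87 and 0.74. The 3 slides gave nearly the same size, with an SD over slides of 0.0757. With GDNF the differences between LG and SM were 1.32, 0.40 and 0.41, so slide 1 was more than 3 times as far apart as the others. Averaged over GDNF the fitted difference was 0.77 with a standard error of 0.145, which would be 1.71-fold in base 2, and the LG ratios were the higher on 3 of 3 slides. In all genes 27.5% lay on 1 side on 3 of 3 slides in this comparison. Between the controls the groups of CRABP2 did not overlap, as in 9.38% of all genes, and 26.2% of all genes lay on 1 side on every slide. With GDNF the LG and SM groups of CRABP2 overlapped, as did all but 6.55% of genes, and 18.3% of all genes lay on 1 side. The 6 LG and 6 SM arrays overlapped too, and 0.118% of all genes had no overlap there. The class took 61.9% of the sum of squares of CRABP2 over the 12 arrays and the slide 4.27%, against medians of 4.99% and 18.7% over all genes. The class took 0.0717% and the slide 54.8% with slide 1 turned, against medians of 2.69% and 43.3%.

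The size of this class difference depends on the orientation of slide 1. On slides 2 and 3 alone it was 0.61 (standard error 0.145). With slide 1 turned it was 0.038 (0.318), since the difference of 1.10 on slide 1 then counts on the other side. For the controls alone the sizes were 0.83 (0.205) as deposited, 0.81 (0.205) on slides 2 and 3 and 0.25 (0.449) with slide 1 turned. With GDNF they were 0.71 (0.205), 0.40 (0.205) and 0.17 (0.449), the last on the other side. Without LG GDNF pool 1 the difference with GDNF was 0.45, and leaving out any 1 array kept the averaged difference between 0.64 and 0.87.

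GDNF-treated SM oocytes had higher CRABP2 ratios than SM controls on every slide, by 0.38, 0.39 and 0.71. The fitted difference was 0.49 with a standard error of 0.205, and the groups did not overlap, as was the case for 7.15% of all genes, while 18.6% of all genes lay on 1 side on every slide. On slides 2 and 3 it was 0.55, and with slide 1 turned 0.24 (0.449). In LG the within-slide differences between GDNF and control were 0.82, -0.082 and 0.37, which lie on both sides of 0. The fitted value there was 0.37 (0.205), but only 0.11 without LG GDNF pool 1 and 0.57 without LG GDNF pool 2. The interaction of class and GDNF was 0.12 in size (standard error 0.290) as deposited, 0.41 (0.289) on slides 2 and 3 and 0.42 (0.635) with slide 1 turned, and its within-slide values of 0.44, -0.47 and -0.34 did not share a side.

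**Figure D2:**
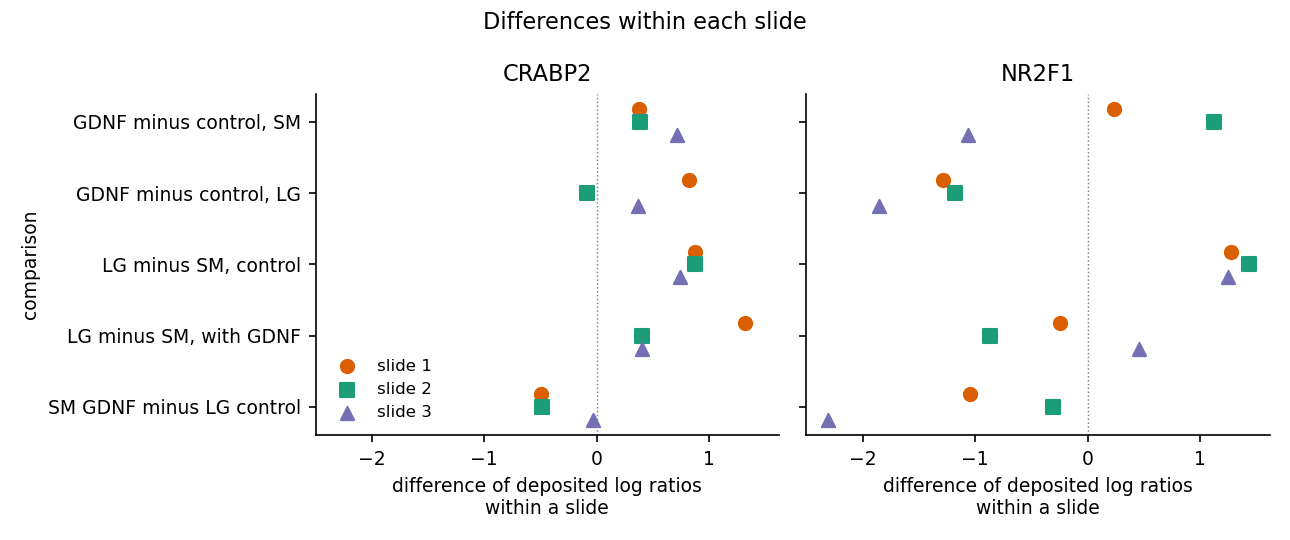
Differences of deposited log ratios (horizontal axis) between 2 arrays of the same slide for 5 comparisons of groups (vertical axis), with 1 point per slide. CRABP2 differs between LG and SM controls by 0.74 to 0.88 on every slide, and NR2F1 by 1.25 to 1.43, whereas the GDNF difference of NR2F1 in SM runs from -1.06 to 1.12.

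SM oocytes with GDNF and LG controls were set side by side as the last pair. CRABP2 was lower in SM GDNF by 0.50, 0.48 and 0.034 within slides, and 29% of all genes lay on 1 side on every slide. The fitted size was 0.34 (standard error 0.205), 0.26 on slides 2 and 3, 0.0066 (0.449) with slide 1 turned, and 0.19 without SM GDNF pool 1. The groups overlapped, since SM GDNF on slide 3 stood at -0.32 and LG control on slide 1 at -0.47.

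NR2F1 stood apart in LG control. Its ratios there were 1.02, 0.51 and 1.51 on slides 1, 2 and 3. In LG GDNF they were -0.27, -0.67 and -0.35. The 3 LG control arrays lay above all other 9 arrays, a pattern that 1.76% of all genes had in either direction. LG control had a mean of 0.33 ± 1.27 (SD, n = 3) with slide 1 turned, and the pattern was gone. Among all features of an array, NR2F1 was at the percentiles 98.8, 88.6 and 95.3 in LG control and at 25.2, 6.74 and 19.3 in LG GDNF. Turned, the arrays of slide 1 were at 1.16 in LG control and 74.8 in LG GDNF.

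In the SM groups NR2F1 was scattered. SM control had -0.26, -0.92 and 0.26, and SM GDNF had -0.025, 0.20 and -0.81. In each group pool 2 was low among the features of its array (percentiles 3.85 and 3.98) and pool 3 in the upper part (74.2 and 68.9). Pool 2 was also the lowest of LG GDNF (-0.67) but the highest of LG control (1.51). Over all features, the pool 2 arrays of SM control, SM GDNF and LG GDNF correlated with each other at 0.756 to 0.844. With LG control pool 2 they correlated at 0.150 to 0.206. The group means were -0.31 ± 0.591 (SD, n = 3) in SM control, -0.21 ± 0.529 in SM GDNF, 1.01 ± 0.498 in LG control and -0.43 ± 0.211 in LG GDNF. In the order of the means, LG GDNF, SM control and SM GDNF did not differ beyond their spread, and LG control followed with no overlap.

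GDNF and control differed in LG by 1.29, 1.18 and 1.86 in NR2F1 within slides, with GDNF the lower on 3 of 3. The fitted size was 1.44 with a standard error of 0.348, or 2.71-fold in base 2. In all genes 10.6% had groups that did not overlap in this comparison and 30.1% kept 1 side on 3 of 3 slides. The size was 1.52 (0.524) on slides 2 and 3 and 0.58 (0.605) with slide 1 turned. Without LG control pool 2, the array with the widest spread, it was 1.20. Leaving out any 1 array kept it between 1.20 and 1.62.

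LG and SM controls differed in NR2F1 by 1.28, 1.43 and 1.25 within slides. The SD over slides was 0.0994, and the fitted size 1.32 (standard error 0.348). This comparison shares the LG control arrays with the one between GDNF and control in LG, so the values are not independent. Slides 2 and 3 alone gave 1.34 (0.524), and turning slide 1 gave 0.47 (0.605). Between SM GDNF and LG control NR2F1 differed by 1.04, 0.31 and 2.31 within slides, with a fitted size of 1.22 (0.348), which became 0.53 (0.605) with slide 1 turned and 0.74 without SM GDNF pool 2. These groups did not overlap, as in 12.1% of all genes.

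In SM, NR2F1 differed between GDNF and control within slides by 0.23, 1.12 and -1.06, which lie on both sides. Slides 2 and 3 each set pool 2 of 1 group against pool 3 of the other. By pool numbers 1, 2 and 3, SM control had ratios of -0.26, -0.92 and 0.26. SM GDNF had -0.025, -0.81 and 0.20 in that order, so pools 2 and 3 lay closer by number than by slide. Whether same-numbered pools belong together was not settled. The fitted difference was 0.097 with a standard error of 0.348, and single arrays moved it from -0.33 (without SM GDNF pool 3) to 0.58 (without SM GDNF pool 2). With GDNF, LG and SM differed by -0.24, -0.87 and 0.45 within slides, for a fitted size of 0.22 (0.348). The interaction of class and GDNF in NR2F1 was 1.54 in size (standard error 0.492), with within-slide values of -1.52, -2.30 and -0.80 on 1 side, as in 20.6% of all genes. With slide 1 turned it was 0.53 (0.856). Averaged over the classes, the GDNF difference of NR2F1 was 0.67 (0.246), or 0.43 without SM GDNF pool 2, and that of CRABP2 was 0.43 (0.145) with the opposite sign, where 28.8% of all genes kept 1 side on every slide. Averaged over GDNF, the class difference of NR2F1 was 0.55 (0.246), or 0.31 without SM GDNF pool 2. The averaged GDNF difference with slide 1 turned was 0.32 (0.428) in NR2F1 and 0.032 (0.318) in CRABP2, and the averaged class difference of NR2F1 was 0.21 (0.428).

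**Figure D3:**
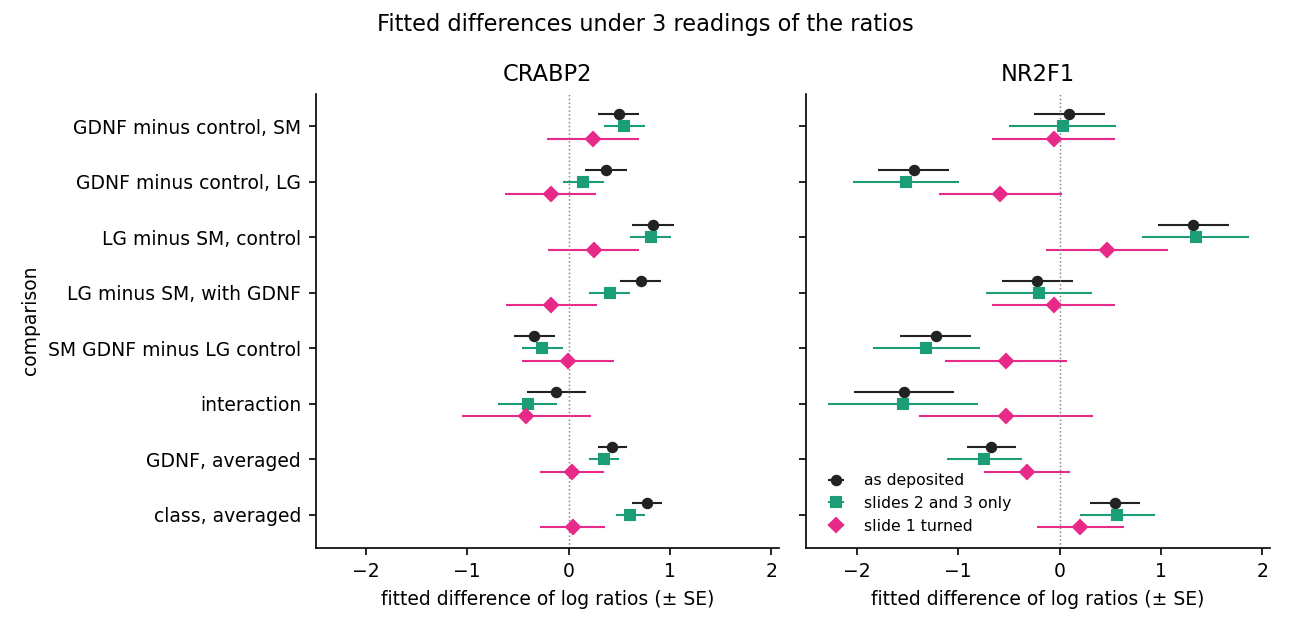
Fitted differences of log ratios with standard errors (horizontal axis) in 8 comparisons, for all arrays as deposited, for slides 2 and 3 only and with slide 1 turned in sign. The class difference of CRABP2 moves from 0.77 to 0.61 and 0.038, and the GDNF difference of NR2F1 in LG from -1.44 to -1.52 and -0.58.

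Limma called 0 of 11913 genes at an adjusted p under 0.05 in each of the 8 comparisons (0%), so neither gene was called. At an unadjusted p under 0.05, 475 genes (3.99%) were counted between the classes averaged over GDNF, 846 (7.1%) between LG and SM controls, 902 (7.57%) between GDNF and control in LG and 279 (2.34%) between GDNF and control in SM. The counts were 287 (2.41%) between LG and SM with GDNF, 882 (7.4%) between SM GDNF and LG control, 499 (4.19%) in the interaction and 530 (4.45%) for GDNF averaged over the classes. In SM GDNF against LG control, leaving out SM GDNF pool 3 gave 196 calls among 11913 genes. NR2F1 was among them, with a size of 1.65, which is no test of it, since LG control arrays were used to choose it. CRABP2 was not among them (limma adjusted p = 0.596). No other array left out gave a call in any comparison.

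The deposited ratios of CRABP2 and NR2F1 did not follow each other. After the mean of each slide was taken out, their correlation over the 12 arrays, which share slides and a reference, was 0.0769. Both were higher in LG control than in SM control. In LG, GDNF stood 1.44 lower in NR2F1 and 0.37 higher in CRABP2. In SM, the sign of CRABP2 was the same on 3 of 3 slides and that of NR2F1 on 2 of 3.

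Markers of other cells were read on the same arrays. The median ratio of 18 measured cumulus and granulosa genes was 0.0938 to 0.102 in SM control, -0.0537 to 0.0797 in SM GDNF, -0.0676 to 0.208 in LG control and -0.339 to 0.0779 in LG GDNF. That of 13 theca, stroma and blood genes lay between -0.118 and 0.0845 on all arrays, and no marker of the 3 lists was at 0 throughout. The 15 oocyte and maternal-effect genes had medians of -0.376 to 0.398 in SM control, -0.0433 to 0.135 in SM GDNF, -0.386 to 0.515 in LG control and -0.251 to 0.765 in LG GDNF. As deposited, the SM control arrays, lowest in CRABP2, thus had a narrow range of cumulus medians above 0. The LG control arrays, highest in NR2F1, had cumulus medians on both sides of 0. With slide 1 turned, the SM control median of that slide (0.102 as deposited) changes sign, and the narrow range above 0 is gone. The part of these markers in the results was not tested.

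The other genes of the retinoid pathway were read from 7 lists by role. These lists were chosen with earlier results of these data known. Shares of listed genes set against all genes, for the ratios as deposited, are therefore descriptions and support nothing. Of 86 genes listed, 56 were measured, and limma called 0 of them in every comparison. CRABP1, ALDH1A1, ALDH1A2 and CYP26B1 are not analysed here. Between the classes averaged over GDNF, 5 of 56 genes (8.93%) had an unadjusted p under 0.05, against 3.99% of all genes. Their median size was 0.112, against 0.106 over all genes. For GDNF against control in LG, 7 of 56 (12.5%) had such a p, against 7.57%, and the median size was 0.116, against 0.161. In SM it was 1 of 56 (1.79%), against 2.34%.

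**Figure D4:**
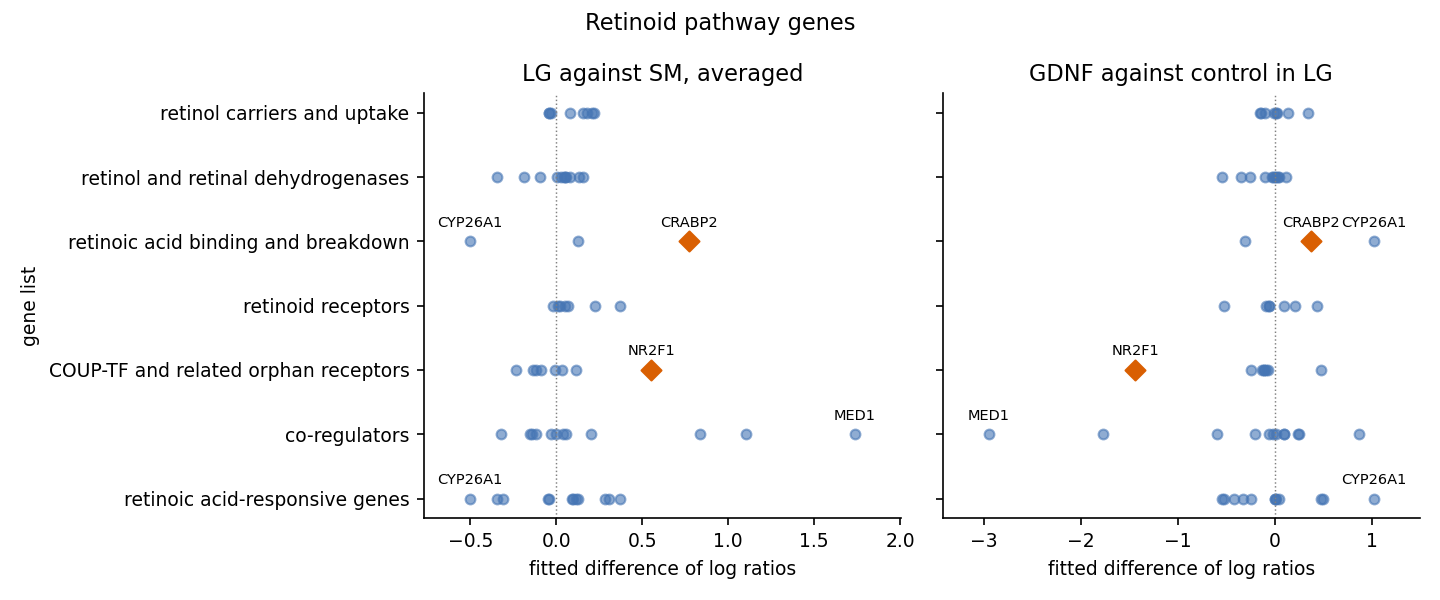
Fitted differences of log ratios (horizontal axes, with different scales) of measured genes of 7 retinoid lists (vertical axis) between LG and SM averaged over GDNF and between GDNF and control in LG. Diamonds are CRABP2 at 0.77 and 0.37 and NR2F1 at 0.55 and -1.44; CYP26A1, in 2 lists, is at -0.50 and 1.01, and MED1 at 1.74 and -2.95.

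Among genes of retinoic acid binding and breakdown, CYP26A1 had its lowest ratios in LG control, the group in which NR2F1 was highest. CYP26A1 is the hydroxylase that clears retinoic acid and is a direct target of RARs. Its ratios in LG control were -1.07, -0.40 and -0.85 on slides 1, 2 and 3, and in LG GDNF -0.17, 0.75 and 0.14. In SM control they were -0.13, 0.92 and -0.42 and in SM GDNF 0.11, 0.11 and 0.83. As deposited, the LG control arrays did not overlap with LG GDNF, as in 10.6% of all genes. They overlapped with SM control only at its lowest array. The difference between GDNF and control in LG was 1.01 (standard error 0.306, limma adjusted p = 0.646), between LG and SM controls 0.90 (0.306, adjusted p = 0.674) and between SM GDNF and LG control 1.12 (0.306, adjusted p = 0.659). With slide 1 turned these sizes were 0.41, 0.27 and 0.34. FABP5, which carries retinoic acid to PPARD, was lower with GDNF in LG by 0.31 (0.276) and differed by 0.13 (0.195) between the classes.

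The list of retinoid receptors held 7 genes, the RAR and RXR genes and PPARD. None of the 7 had an unadjusted p under 0.05 in any of the 8 comparisons, and their median class difference was 0.053 in size. RARA had a class difference of 0.0064 (standard error 0.141), RARG 0.053 (0.112), RXRA 0.021 (0.114) and RXRB 0.066 (0.148). RARB, itself a retinoic acid target, had 0.37 (0.297). On LG control pool 2 its ratio was 1.96, against 0.39 and -0.019 on the other LG control arrays. RXRG had 0.23 (0.277), with ratios from -0.92 to 0.81 over all arrays.

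The relatives of NR2F1 were read next. NR2F2 (COUP-TFII), its closest relative, had means of 0.20 ± 0.116 (SD, n = 3) in SM control, 0.37 ± 0.226 in SM GDNF, 0.23 ± 0.075 in LG control and 0.16 ± 0.097 in LG GDNF. Its difference between GDNF and control in LG was 0.074 (standard error 0.153). NR2F6, the third member of that subfamily, had 0.13 (0.157). The orphan receptor NR2C1 (TR2, mean of 3 features), named after its values were seen, was lowest in LG control, at -0.25 ± 0.276 (SD, n = 3), against 0.22 ± 0.274 in SM control, 0.22 ± 0.235 in SM GDNF and 0.23 ± 0.253 in LG GDNF. Its LG control arrays overlapped with SM GDNF, and its difference between GDNF and control in LG was 0.48 (0.206, limma adjusted p = 0.655), or 0.040 with slide 1 turned. It was the 1 gene of 7 on the list of COUP-TF and related receptors with an unadjusted p under 0.05 in that comparison, against 7.57% of all genes. HNF4A, a related receptor of fatty acid ligands, had 0.35 (0.160) between GDNF and control in SM, the second smallest p of the lists there. Over the 40 other measured nuclear receptors the sizes for GDNF in LG ran from 0.011 to 0.96, with a median of 0.126, against 1.44 for NR2F1. Over 10 other measured members of the fatty acid and retinoid binding protein family the class sizes ran from 0.034 to 0.22, with a median of 0.134, against 0.77 for CRABP2. These contrasts chose the pair, so no weight rests on their place in these ranges.

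Among retinoic acid-responsive genes, 4 of 12 had an unadjusted p under 0.05 between the classes (1 higher and 3 lower in LG), against 3.99% of all genes. For GDNF in LG it was 4 of 12 (2 higher and 2 lower), against 7.57%. Both counts are for the ratios as deposited. The list was chosen with earlier results of these data known, so no weight rests on these shares. HOXA4, a homeobox gene that responds to retinoic acid in mouse embryos, had means of -0.24 ± 0.030 (SD, n = 3) in SM control, 0.0046 ± 0.203 in SM GDNF, -0.057 ± 0.057 in LG control and 0.44 ± 0.234 in LG GDNF. Its differences were 0.49 (standard error 0.140, limma adjusted p = 0.646) for GDNF in LG and 0.31 (0.099, adjusted p = 0.937) between the classes, on 3 of 3 slides each. The homeobox gene MEIS1 had 0.31 (0.110) between the classes and 0.41 (0.156) between controls, with LG the lower. DHRS3, which reduces retinal back to retinol and is induced by retinoic acid, had 0.34 (0.142) between the classes, with LG the lower, and 0.48 (0.142) for GDNF averaged over the classes, with GDNF the lower. With slide 1 turned, the sizes were, for HOXA4, 0.16 in both of these comparisons, for MEIS1 0.11 and 0.25, and for DHRS3 0.056 and 0.28. RET, the GDNF receptor kinase and a retinoic acid-responsive gene in neuroblastoma cells, had 0.0019 (0.221) for GDNF in LG and 0.19 (0.221) in SM.

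Among genes of retinol transport and oxidation, 1 of 8 and 0 of 11 had an unadjusted p under 0.05 between LG and SM with GDNF, against 2.41% of all genes. Of the 11 dehydrogenases and related enzymes, 1 had such a p for GDNF in SM (2.34% of all genes), for GDNF in LG (7.57%), for GDNF averaged (4.45%) and between the classes (3.99%). The retinol-binding protein RBP7 had 0.56 (standard error 0.176) between LG and SM with GDNF, 0.36 (0.176) for GDNF in SM and 0.70 (0.248) in the interaction. These sizes were 0.25, 0.051 and 0.14 with slide 1 turned. BCO2, a carotenoid-cleaving oxygenase, had 0.41 (0.153) for GDNF in SM, the smallest p of the lists there (limma adjusted p = 1.00). ALDH1A3, a retinal dehydrogenase that makes retinoic acid, had 0.028 (0.155) between the classes, and STRA6, the retinol-uptake receptor, had 0.040 (0.107).

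Among co-regulators, the coactivator NCOA3 (mean of 3 features) had 0.86 (standard error 0.304) for GDNF in LG, 0.77 (0.304) for SM GDNF against LG control and 0.82 (0.430) in the interaction. Its ratio on LG control pool 2 was -1.29, against -0.60 and -0.23 on the other LG control arrays. MED1, the Mediator subunit that binds nuclear receptors, had the widest sizes, 3.22 (1.17) between controls and 3.20 (1.17) between SM GDNF and LG control. On LG control pool 2 its ratio was 6.24, against 0.95 and -0.63 on the other LG control arrays. NR2F1 was at 1.51 on that array and at 1.02 and 0.51 on the others of its group.

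The genes with the pattern most like each member were found by Pearson correlation over the 12 arrays after slide means were taken out, a measure that turning slide 1 leaves as it is for genes on the same arrays. For NR2F1 they were the centromere protein gene CENPL (0.966), the adhesion gene CADM4 (0.964), the nucleosome-binding protein gene HMGN5 (0.956), the zinc-finger gene ZC3H6 (0.955) and UHRF1 (0.955), a factor of DNA methylation upkeep. Their differences between GDNF and control in LG had sizes of 0.85, 0.32, 1.18, 1.07 and 0.53, in this order. Of 11030 genes 30 had a correlation above 0.9 with NR2F1.

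For CRABP2 they were the secretin receptor gene SCTR (0.895), the interferon gene IFN-DELTA-2 (0.878), the peptidase inhibitor gene PI15 (0.859), the secretoglobin gene SCGB1A1 (0.856) and ABCA4 (0.855), a transporter of photoreceptor cells. Their class differences were 0.26, 0.31, 0.28, 0.35 and 0.19, against 0.77 for CRABP2. No gene had a correlation above 0.9 with CRABP2, and 22 were above 0.8, against 203 for NR2F1. None of these 10 genes is on the retinoid lists. The highest retinoid gene for CRABP2 was HOXA4, at 0.699 and rank 101, and for NR2F1 it was MED1, at 0.869 and rank 68. Negative correlations of retinoid genes reached -0.846 for CRABP2, with MEIS1, and -0.944 for NR2F1, with CYP26A1. Counted from the highest correlation, MEIS1 was at rank 11019 and CYP26A1 at rank 10982 of 11030 genes. Genes outside the retinoid lists thus had correlations still more negative. The 12 arrays share 3 slides and a reference, and the correlations are descriptions.

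**Figure D5:**
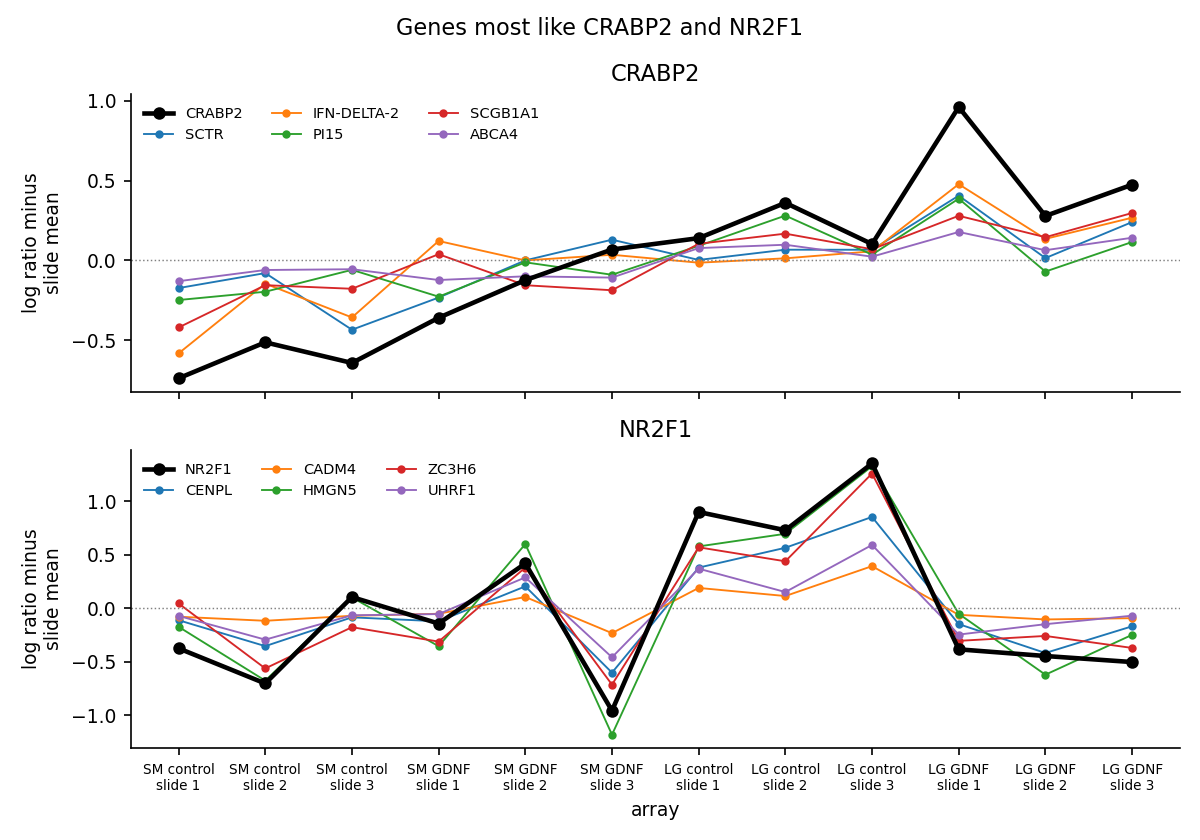
Log ratio minus the mean of its slide (vertical axis) on the 12 arrays (horizontal axis) for CRABP2, NR2F1 and the 5 genes most like each. The genes most like NR2F1 lie above their slide mean on the 3 LG control arrays and, as NR2F1, have their lowest value on SM GDNF of slide 3, and those most like CRABP2 have a narrower range than CRABP2 itself.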

How the data were processed

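The files hold the authors' deposited log ratios, treated here as log2 ratios, of 45220 features on 12 two-colour arrays. Per the labels' protocols, RNA was amplified by oligo(dT) priming with in vitro transcription, then carried the dye Cy5 or Cy3. For background correction, normalization, log base and numerator, nothing is stated in the labels or files used here. Spot brightness was not used here, which leaves dim and saturated spots in. The platform annotation gave 1 symbol for 18121 features and none for 27099. Symbols were updated through RefSeq accessions, current symbols and unique synonyms, and features of a gene were averaged, giving 11913 genes. Limma (version 3.58.1, R 4.3.3) fitted group and slide to all 12 arrays with 6 residual degrees of freedom and was tested on simulated data. P-values are two-sided, Benjamini-Hochberg adjusted over all genes of each of 8 comparisons, with a threshold of 0.05. The 3 retinoid genes with the smallest p in each comparison, a fixed set of core retinoid genes and the 5 genes most like each member were named. The members and lists were chosen with earlier results of these data known. The number of arrays limits the precision.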

Additional observations from a re-analysis of the deposited data

How the results depend on the processing

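The values of CRABP2 and NR2F1 in 8 comparisons were recomputed under other settings, and the differences are signed as deposited. Turning slide 1 reversed CRABP2 for GDNF in LG (-0.18) and for LG against SM with GDNF (-0.17), and NR2F1 for GDNF in SM (-0.057). It also moved the mean of CRABP2 to -0.27 in SM control, -0.027 in SM GDNF, -0.020 in LG control and -0.20 in LG GDNF, and that of NR2F1 to 0.33 in LG control, by its construction. Array weights reversed NR2F1 for GDNF in SM (-0.064) and for LG against SM with GDNF (0.015), and the cause was not tested. Leaving out 1 array moved CRABP2 in the interaction between -0.38 and 0.072. It moved NR2F1 between -0.33 and 0.58 for GDNF in SM and between -0.70 and 0.21 for LG against SM with GDNF. For SM GDNF against LG control, NR2F1 moved between -1.65 and -0.74. Calls there ranged from 0 to 196 of 11913 genes, the latter without SM GDNF pool 3. Slides 2 and 3 alone and quantile normalization kept every difference of the pair on its side and gave 0 calls. Slides 2 and 3 gave -0.41 against -0.12 for CRABP2 in the interaction. No slide block, feature medians, single features and a filter on the SD also gave 0 calls. By construction these settings could not move the differences of the pair. Each gene had 1 feature, each slide held 1 array of every group, and the filter only removed other genes. Genes with an unadjusted p under 0.05 for GDNF in LG numbered 902 as reported, 571 with slide 1 turned and 2044 with array weights, and 0 were called in each. The replicate block by pool number gave 0 calls. Its differences (CRABP2 between classes 0.77, NR2F1 for GDNF in LG -1.44) are the same by construction, since every group holds each pool number once. Only standard errors could change, as from 0.205 to 0.218 for CRABP2 between the controls. Whether pool numbers pair the arrays was not settled. Deviations of same-numbered arrays correlated at -0.502 to 0.575, and those of arrays on the same slide at -0.442 to 0.575. Of 12 arrays, 7 correlated best with their own pool number, and 7 with their own slide. Without taking slide means out, 1 of the 5 genes most like CRABP2 and 1 of the 5 most like NR2F1 remained.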
